A study of Homo sapiens with 24 samples.

Results

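Enzymes that place, remove or maintain methyl groups on histones and on DNA were followed in 2 lines of diffuse large B-cell lymphoma (DLBCL) after treatment with histone deacetylase inhibitors (HDACi). The set was a fixed list of 51 genes: 25 lysine methyltransferases with partner subunits, 7 arginine methyltransferases, 12 demethylases and 7 genes of DNA methylation. Of these, 48 had a probe named by the array annotation used here, among 20046 genes with a named probe in all. ASH1L, KDM5A and TET3 were not named there and were not analysed here. Where a gene had several probes, the brightest of them over the 24 arrays was read.

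DoHH2, an established germinal center B-cell type (GCB) line, and TMD8, an established activated B-cell type (ABC) line, were grown in culture and exposed for 8 h to ITF-A at 100 nM, to ITF-B at 200 nM or to the vehicle, DMSO. Both compounds are HDACi of the hydroxamic acid type, described as acting on the class I, IIb and IV deacetylases. Each line had 3 arrays with ITF-A, 3 with ITF-B and a separate set of 3 DMSO arrays for each compound, from 3 independent experiments, which gave 8 groups of 3 arrays. The doses of the compounds differed, so their values are given side by side and no difference between them was tested. Each subtype was represented by 1 cell line, so subtype and line cannot be told apart. The arrays read mRNA of whole cultures, so that less mRNA in every cell and fewer cells with that mRNA cannot be told apart. Protein, enzyme activity and methylation itself were not measured.

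Histone methyltransferases transfer a methyl group from S-adenosylmethionine to lysine or arginine residues, and demethylases of the amine oxidase and Jumonji families take lysine methylation away again. The mark is read by its position: methylation of H3K4 goes with active promoters and enhancers, that of H3K36 and H3K79 with transcribed gene bodies, and that of H3K9 and H3K27 with silenced chromatin. DNA methylation is set up by DNMT3A and DNMT3B, copied after replication by DNMT1 with UHRF1, and oxidized by the TET enzymes. In germinal center B cells EZH2 is expressed at a high level, and EZH2 and KMT2D are among the genes altered by mutation in lymphomas of this origin.

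To show what the array values stand beside in the genome, the promoters of 4 members are printed: DNMT3B and KDM5B, which had the largest rises over the 4 comparisons of treated with DMSO cells, PRMT3, which had the largest fall, and UHRF1, chosen after its values had been seen because its change differed most between the lines. Each is the run of 250 bases before the start listed by RefSeq (build GRCh38.p14), on the strand of the gene and 5′ to 3′, and the capitals mark matches on either strand to the CCAAT box, to the GC box with the letters GGGCGG, to the E box with the letters CACGTG, or to an E2F-like run with the letters TTTNNCGC.
DNMT3B promoter, chr20:32779602-32779851, plus strand: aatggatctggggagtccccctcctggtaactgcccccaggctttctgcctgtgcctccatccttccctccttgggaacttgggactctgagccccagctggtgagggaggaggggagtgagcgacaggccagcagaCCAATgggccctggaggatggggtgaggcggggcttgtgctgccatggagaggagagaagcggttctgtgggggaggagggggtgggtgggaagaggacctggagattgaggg
KDM5B promoter, chr1:202808422-202808671, minus strand: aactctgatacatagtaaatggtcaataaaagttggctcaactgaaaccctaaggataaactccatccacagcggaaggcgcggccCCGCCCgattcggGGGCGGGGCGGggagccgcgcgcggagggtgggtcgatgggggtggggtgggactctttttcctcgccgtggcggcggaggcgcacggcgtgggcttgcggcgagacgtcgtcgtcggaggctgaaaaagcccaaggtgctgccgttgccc
PRMT3 promoter, chr11:20387466-20387715, plus strand: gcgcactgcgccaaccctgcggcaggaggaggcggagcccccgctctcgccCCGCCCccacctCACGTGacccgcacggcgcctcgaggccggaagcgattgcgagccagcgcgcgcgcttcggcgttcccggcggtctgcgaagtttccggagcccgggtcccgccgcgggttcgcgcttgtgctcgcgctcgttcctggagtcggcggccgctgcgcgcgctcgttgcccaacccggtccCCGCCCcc
UHRF1 promoter, chr19:4909251-4909500, plus strand, the first of 3 listed starts: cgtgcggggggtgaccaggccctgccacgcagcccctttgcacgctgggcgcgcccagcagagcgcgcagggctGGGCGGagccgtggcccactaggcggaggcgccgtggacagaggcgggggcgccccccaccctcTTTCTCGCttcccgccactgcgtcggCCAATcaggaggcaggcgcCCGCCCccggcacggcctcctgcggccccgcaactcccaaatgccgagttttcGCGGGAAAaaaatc

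The DNMT3B run held 1 CCAAT box, at -113 to -109 from the start, no GC box and 3 CG dinucleotides. The KDM5B run held 3 GC boxes, of which 2 overlapped by a single base, and 27 CG dinucleotides. In PRMT3 an E box at -187 to -182 from the start lay between 2 GC boxes, with 43 CG dinucleotides. In UHRF1 a CCAAT box and 2 GC boxes stood beside 2 E2F-like runs, at -112 to -105 and -14 to -7, with 28 CG dinucleotides. Of 35116 promoters of this length in the table, 32% held the CCAAT box, 42.6% the GC box, 6.34% the E box and 5.92% the E2F-like run. Of the 45 members with an entry, 13 held the CCAAT box, 29 the GC box, 8 the E box and 7 the E2F-like run. DOT1L, SETD1B and ASH2L had no entry. A match describes letters only and was not tested against the expression values, and which start the cells used was not measured.

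All values given next are log2 signals after background correction and quantile normalization, and a change is the log2 difference between treated and DMSO arrays of the same compound, with its standard error (SE). A member was called changed at an adjusted p under 0.05 in limma, over all 47231 probes. The deposited intensities ran from 70.3 to 26194.5, with array medians from 93.2 to 112, and the median normalized value of all probes was 6.16. Arrays of one group correlated at 0.993 to 0.996 across probes, and no array stood apart. Of the 48 members, 44 had a mean signal above that median, and KMT2D, SETD7, TET2 and KDM1B did not, so that these 4 were read near the background of the array. The mean over 6 B-cell markers was 9.28 to 9.47 in DMSO arrays of DoHH2 cells and 10.3 to 10.4 in those of TMD8. With DMSO, 3 of the 6 lay above 8 in DoHH2 cells and 5 in TMD8 cells. Above the median of all probes lay 5 in DoHH2 cells and 6 in TMD8 cells. Markers of T cells, myeloid cells and epithelial or stromal cells had no gene above 8 in either line. Of 7 ABC markers, 6 were higher in TMD8 cells than in DoHH2 cells with DMSO. Of 6 GCB markers, 4 were also higher in TMD8 cells and 1 was lower, so that this list went against the GCB label of DoHH2, and the lines are called here by their names. Among them BCL6 and LMO2 were higher in TMD8 cells by 3.32 and 3.06, and MME (CD10) was lower, with -2.15. With treatment 5 of the 6 B-cell markers and all 7 ABC markers fell in TMD8 cells with each compound, and none rose. In DoHH2 cells 2 (ITF-A) or 3 (ITF-B) B-cell markers fell and 1 rose, and 4 ABC markers fell and 2 rose. Of named genes above the median signal, 25.8% to 27% fell and 28.1% to 28.4% rose. The part of the marker changes in the values of the enzymes was not tested.

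Treatment changed 24 to 33 of the 48 members, with more falls than rises in each of the 4 comparisons. In DoHH2 cells under ITF-A 10 members rose and 23 fell, 33 of 48, where 19% of all named genes rose and 17.2% fell (36.2% in either direction). Under ITF-B it was 7 up and 19 down, beside 18.8% and 17% (35.8%). In TMD8 cells the counts were 8 up and 16 down under ITF-A, beside 19.2% and 17.8% (37%), and 10 up and 17 down under ITF-B, beside 19.3% and 17.4% (36.7%). Most members lie among the 12791 named genes with a signal above the median. Of these 28.4%, 28.3%, 28.1% and 28.3% rose and 26.2%, 25.8%, 27% and 26.5% fell in the same order, so that the share of members that rose lay below this background and the share that fell above it. The median change of the members was -0.18 and -0.11 in DoHH2 cells (ITF-A and ITF-B) and -0.05 and -0.08 in TMD8 cells, while that of all named genes was 0.00 in all 4 comparisons.

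A core of 18 members moved in one direction in all 4 comparisons. SMYD3, EZH2, KDM5B, KDM3A and DNMT3B rose in all of them, 10.4% of the members, where 11.2% of named genes and 17.4% of those above the median signal did. SUV39H1, SETDB1, SETD1B, KMT2B, NSD1, SMYD2, PRMT1, PRMT3, PRMT5, PRMT6, CARM1, KDM3B and TET1 fell in all of them. These were 27.1% of the members, against 9.92% of named genes and 15.5% of those above the median signal. UHRF1 and KDM2B rose in one comparison and fell in others. In 11 members, among them EZH1, SUZ12, EHMT1, KMT2C, KMT2D, SETD7, SETD2, KDM1A, KDM4A, DNMT1 and TET2, no change passed the test.

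**Figure D1:**
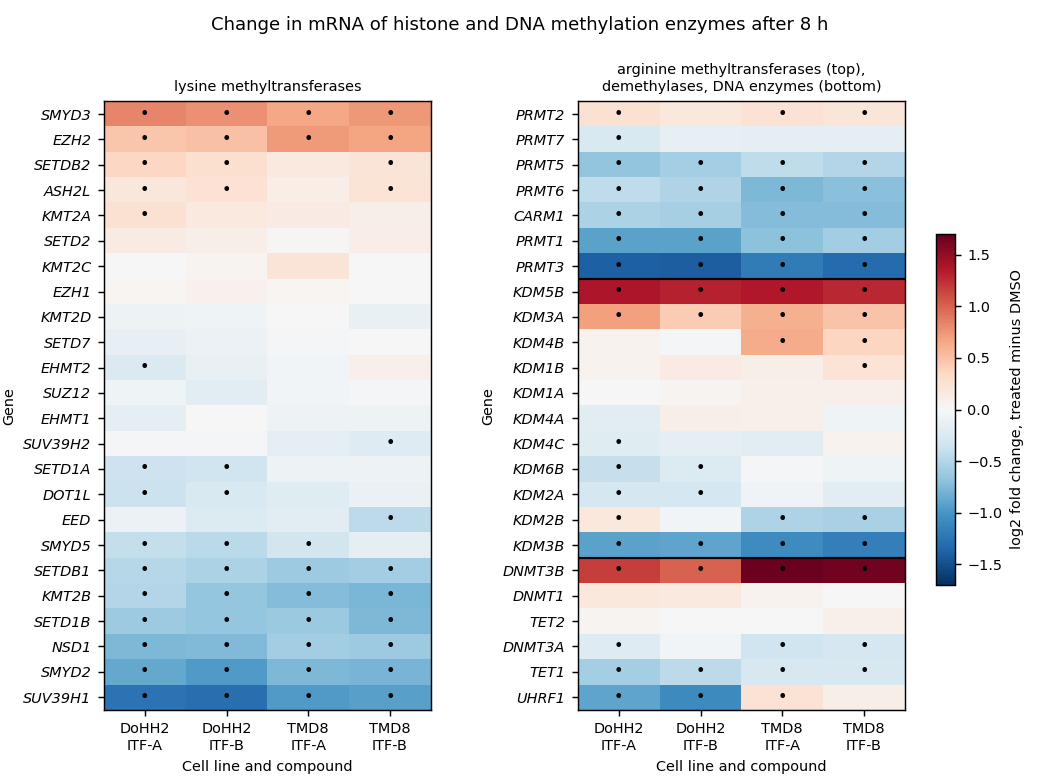
Change of the 48 measured enzymes after 8 h, as the log2 difference between treated and DMSO arrays (colour scale, red up and blue down), for each cell line and compound (columns); dots mark an adjusted p under 0.05 in limma, and genes are sorted within each class by their mean change. Arginine methyltransferases are blue except for PRMT2, while the demethylases and DNA enzymes hold both the strongest rises, KDM5B and DNMT3B, and clear falls such as KDM3B.

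Among the 24 lysine methyltransferases and subunits, the numbers up and down were 5 and 10 under ITF-A and 4 and 9 under ITF-B for DoHH2, and 2 and 7 under ITF-A and 4 and 8 under ITF-B for TMD8. Their medians lay between -0.12 and -0.06. The shares were 8.33% to 20.8% up and 29.2% to 41.7% down. Of named genes above the median signal, 28.1% to 28.4% rose and 25.8% to 27% fell. Writers of H3K9 methylation included the largest fall of the class. SUV39H1, which trimethylates H3K9 in pericentromeric heterochromatin, dropped most in DoHH2 cells. Its DoHH2 arrays read 9.07, 9.04 and 9.16 with DMSO against 7.81, 7.84 and 7.85 with ITF-A, and 9.13, 9.08 and 9.07 with DMSO against 7.84, 7.85 and 7.75 with ITF-B. In TMD8 cells the values were 9.01, 9.02 and 9.10 against 8.14, 8.001 and 8.09 for ITF-A, and 9.05, 9.03 and 9.02 against 8.20, 8.02 and 8.11 for ITF-B. Every treated array lay below every DMSO array of its line. The changes were -1.26 and -1.28 for DoHH2 and -0.97 and -0.92 for TMD8 (SE 0.06 each, largest adjusted p = 2.72e-15), or falls of 2.39-fold, 2.43-fold, 1.95-fold and 1.89-fold. Its paralog SUV39H2 changed far less, by -0.03, -0.02, -0.15 and -0.22, and passed only with ITF-B in TMD8 cells (adjusted p = 0.0272), a call that was lost without DMSO replicate 1 or 2 or ITF-B replicate 2 or 3 (adjusted p up to 0.222).

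SETDB1, which silences retroelements through H3K9 trimethylation, fell, with changes of -0.49, -0.54, -0.62 and -0.59 in the same order of comparisons. SETDB2, a related SET-domain protein, rose in DoHH2 cells (0.35 and 0.27) and under ITF-B in TMD8 cells (0.22), while its 0.17 under ITF-A there did not pass (adjusted p = 0.0512). The call with ITF-B in TMD8 cells was lost without ITF-B replicate 3 (adjusted p = 0.123). EHMT1 and EHMT2 form the complex that mono- and dimethylates H3K9 in euchromatin. EHMT2 fell only with ITF-A in DoHH2 cells (-0.25, adjusted p = 0.0109), which a second and dimmer EHMT2 probe did not show (0.04) and which was lost without replicate 3 of either group (adjusted p up to 0.0943). That probe rose with ITF-A in TMD8 cells (0.21, adjusted p = 0.0326) and was lower in TMD8 than in DoHH2 cells with DMSO (-0.41), neither of which the brighter probe showed.

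The PRC2 complex trimethylates H3K27, and its core genes did not move together. EZH2, the main catalytic subunit, rose in both lines. The DMSO arrays for ITF-A in DoHH2 cells gave 8.61, 8.74 and 8.55 and those with ITF-A 9.07, 9.01 and 9.22, while the ITF-B arrays gave 9.03, 9.27 and 9.22 over 8.71, 8.71 and 8.61. In TMD8 cells EZH2 went from 8.76, 8.70 and 8.58 to 9.32, 9.49 and 9.42 with ITF-A and from 8.74, 8.58 and 8.58 to 9.38, 9.33 and 9.21 with ITF-B. Treated and DMSO arrays did not overlap in any of the 4 comparisons. The rises were 0.47 and 0.50 for DoHH2 and 0.73 and 0.68 for TMD8 (SE 0.08 each, adjusted p from 2.24e-10 to 4.11e-06), that is 1.38-fold to 1.66-fold. On the single chips the change with ITF-A in DoHH2 cells was 0.67 on chip 1 and 0.36 on chip 2. A second EZH2 probe gave 0.42, 0.37, 0.88 and 0.72, all called. Another gave 0.33, 0.27, 0.41 and 0.34, of which that with ITF-B in DoHH2 cells did not pass (adjusted p = 0.0696). EZH1, the other catalytic subunit, changed by -0.01 to 0.08 and was not called in any comparison. EED, the subunit that binds the finished mark, fell with ITF-B in TMD8 cells (-0.44, adjusted p = 0.000286) with overlapping groups, and SUZ12, which holds the core together, gave -0.18 to -0.03 with no call.

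Among the writers of H3K4 methylation, SETD1B and KMT2B fell in all 4 comparisons while KMT2C, KMT2D and SETD7 passed in none. SETD1B, a catalytic subunit of a SET1/COMPASS complex, read 6.95, 7.16 and 7.001 with DMSO and 6.53, 6.42 and 6.31 under ITF-A in DoHH2 cells, and 7.04, 7.09 and 6.99 and 6.33, 6.42 and 6.40 for ITF-B. In TMD8 cells it read 6.84, 6.87 and 7.02 and 6.30, 6.22 and 6.31 for ITF-A, and 6.91, 7.02 and 6.90 and 6.13, 6.28 and 6.12 for ITF-B. All treated arrays were lower than all DMSO arrays of their line. The changes were -0.62, -0.66, -0.63 and -0.77 (SE 0.07, largest adjusted p = 3.72e-09). KMT2B, an MLL-family enzyme of promoters, fell, with changes of -0.50 and -0.66 for DoHH2 and -0.74 and -0.78 for TMD8. SETD1A fell in DoHH2 cells only (-0.35 and -0.34), with -0.08 and -0.08 in TMD8 cells, and the difference between the lines did not pass (adjusted p = 0.124 and 0.143). KMT2A rose with ITF-A in DoHH2 cells (0.26, adjusted p = 0.00407) and gave 0.10 to 0.17 in the other comparisons. ASH2L, a subunit shared by these complexes, rose under both compounds in DoHH2 cells (0.19 and 0.25) and under ITF-B in TMD8 cells (0.23). The ASH2L call with ITF-A in DoHH2 cells was lost without DMSO replicate 2 or 3 or ITF-A replicate 1 or 3 (adjusted p up to 0.138), and that with ITF-B in TMD8 cells without DMSO replicate 1 or 2 (up to 0.0790). KMT2D, which marks enhancers, was read at 5.84 to 6.30 in the 12 DMSO arrays and 5.85 to 6.02 in the 12 treated ones, where the array does not resolve low levels.

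NSD1, which dimethylates H3K36, fell in both lines. Its DoHH2 values were 7.50, 7.71 and 7.27 against 6.75, 6.87 and 6.59 for ITF-A, and 7.49, 7.49 and 7.38 against 6.84, 6.68 and 6.60 for ITF-B. In TMD8 cells they were 7.53, 7.56 and 7.36 against 6.94, 6.86 and 6.86, and 7.81, 7.48 and 7.40 against 6.96, 6.94 and 6.96. No treated array reached a DMSO array of its line. NSD1 changed by -0.76, -0.75, -0.60 and -0.61 (SE 0.08, largest adjusted p = 2.49e-08), and its second probe fell, with changes of -0.26, -0.40, -0.43 and -0.45, all called. DOT1L, the writer of H3K79 methylation, fell in DoHH2 cells (-0.37 and -0.26), where the call with ITF-B was lost without DMSO replicate 1, 2 or 3 or ITF-B replicate 2 (adjusted p up to 0.692). SETD2, which trimethylates H3K36, was called in none (0.02 to 0.13).

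The SMYD enzymes, which methylate histones and other proteins, split by member. SMYD3 rose in all 4 comparisons. Its DoHH2 arrays went from 8.29, 8.21 and 8.26 with DMSO to 9.20, 9.03 and 9.02 with ITF-A, and from 8.31, 8.10 and 8.26 to 9.01, 9.01 and 8.98 with ITF-B. Its TMD8 arrays went from 9.02, 9.15 and 9.08 to 9.64, 9.84 and 9.73, and from 9.01, 9.02 and 8.99 to 9.63, 9.74 and 9.85. The groups did not overlap, and the rises were 0.83, 0.78, 0.65 and 0.73 (SE 0.07, largest adjusted p = 5.25e-10). SMYD2, whose targets include p53, fell in every comparison. Its DoHH2 arrays read 7.83, 7.999 and 7.90 against 7.04, 6.99 and 7.09, and 7.96, 7.95 and 7.96 against 6.94, 6.95 and 7.10. In TMD8 cells it read 8.39, 8.58 and 8.59 against 7.68, 7.81 and 7.78, and 8.54, 8.43 and 8.61 against 7.79, 7.79 and 7.66. The falls were -0.87, -0.96, -0.76 and -0.78 (SE 0.07, largest adjusted p = 4.77e-12), with all treated below all DMSO arrays of the line. SMYD5 fell, with changes of -0.41, -0.46 and -0.32, and its -0.15 with ITF-B in TMD8 cells did not pass.

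Most arginine methyltransferases fell. Of the 7 measured, DoHH2 cells showed 6 down and 1 up under ITF-A and 5 down under ITF-B, and TMD8 cells 5 down and 1 up under each compound. Their median change was -0.54 and -0.56 for DoHH2 and -0.69 and -0.59 for TMD8, each below 0.00 for all named genes. Of named genes above the median signal, 25.8% to 27% fell and 28.1% to 28.4% rose in the 4 comparisons. The same 5 members, PRMT1, PRMT3, PRMT5, PRMT6 and CARM1, fell in all 4 comparisons. PRMT3, a mostly cytosolic enzyme whose known substrate is the ribosomal protein S2 (RPS2), had the largest fall of the 48 members. It read 10.16, 10.19 and 10.13 with DMSO and 8.87, 8.71 and 8.73 under ITF-A in DoHH2 cells, and 10.10, 10.36 and 10.22 and 8.96, 8.77 and 8.76 for ITF-B. In TMD8 cells it read 10.09, 10.12 and 10.08 and 8.87, 8.92 and 8.95 for ITF-A, and 10.13, 10.09 and 9.97 and 8.63, 8.77 and 8.85 for ITF-B. The lowest DMSO array and the highest treated array of a line lay more than 1 apart on the log2 scale. PRMT3 changed by -1.39, -1.40, -1.18 and -1.31 (SE 0.07, largest adjusted p = 7.91e-17), falls of 2.27-fold to 2.63-fold. Within single chips its changes with ITF-B in TMD8 cells were -1.22 on chip 1 and -1.502 on chip 2.

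PRMT1, which makes most of the asymmetric dimethylarginine of the cell, also fell in both lines. Its DoHH2 arrays gave 9.77, 9.83 and 9.70 with DMSO and 8.83, 8.91 and 8.81 with ITF-A, and 10.06, 9.75 and 9.85 and 9.23, 8.72 and 9.003 for ITF-B. Its TMD8 arrays gave 10.16, 9.98 and 10.11 and 9.37, 9.41 and 9.39 for ITF-A, and 9.95, 9.98 and 10.12 and 9.70, 9.36 and 9.25 for ITF-B. No treated array was as bright as any DMSO array of its line. PRMT1 changed by -0.92, -0.90, -0.69 and -0.59 (SE 0.09, largest adjusted p = 2.3e-06). The change of PRMT1 with ITF-B in TMD8 cells was -0.75 on chip 1 and -0.26 on chip 2, where it did not pass (adjusted p = 0.414). PRMT5, which makes symmetric dimethylarginine with WDR77, fell, with changes of -0.67, -0.58, -0.43 and -0.50, and its second probe gave -0.61, -0.60, -0.63 and -0.66. PRMT6, a nuclear enzyme that methylates histone H3 at arginine, fell, with changes of -0.43, -0.51, -0.76 and -0.71. CARM1, a coactivator that methylates H3 and transcription factors, fell, with changes of -0.54, -0.56, -0.74 and -0.73. PRMT7 passed with ITF-A in DoHH2 cells only (-0.25, adjusted p = 0.00449), and gave -0.17 to -0.14 in the others.

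PRMT2 was the exception among the arginine methyltransferases. Its DoHH2 arrays read 6.77, 6.73 and 6.68 with DMSO and 7.11, 6.86 and 6.97 with ITF-A, and 6.97, 6.80 and 6.79 and 6.95, 7.04 and 7.11 for ITF-B. In TMD8 cells it read 7.74, 7.93 and 7.76 and 7.99, 8.19 and 7.98 for ITF-A, and 7.74, 7.96 and 7.93 and 8.10, 8.11 and 8.03 for ITF-B. The groups overlapped for ITF-B in DoHH2 cells and not in the other comparisons. Its changes were 0.26, 0.18, 0.24 and 0.20 (SE 0.08, adjusted p = 0.00909, 0.0841, 0.0136 and 0.0486), so that it was called except with ITF-B in DoHH2 cells. The calls were fragile. On the mean of its 3 probes the call with ITF-A in DoHH2 cells did not pass (0.10, adjusted p = 0.235). Nor did that with ITF-B in TMD8 cells (0.07, adjusted p = 0.407). The one with ITF-A in DoHH2 cells was lost without DMSO replicate 3 or ITF-A replicate 1 (adjusted p up to 0.121), that with ITF-A in TMD8 cells without DMSO replicate 1 or 3 or ITF-A replicate 2 (up to 0.134), and that with ITF-B in TMD8 cells in 12 of the 24 fits that left out an array (up to 0.316), among them those without DMSO replicate 1 or 3 or ITF-B replicate 1 or 2 of that comparison.

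**Figure D2:**
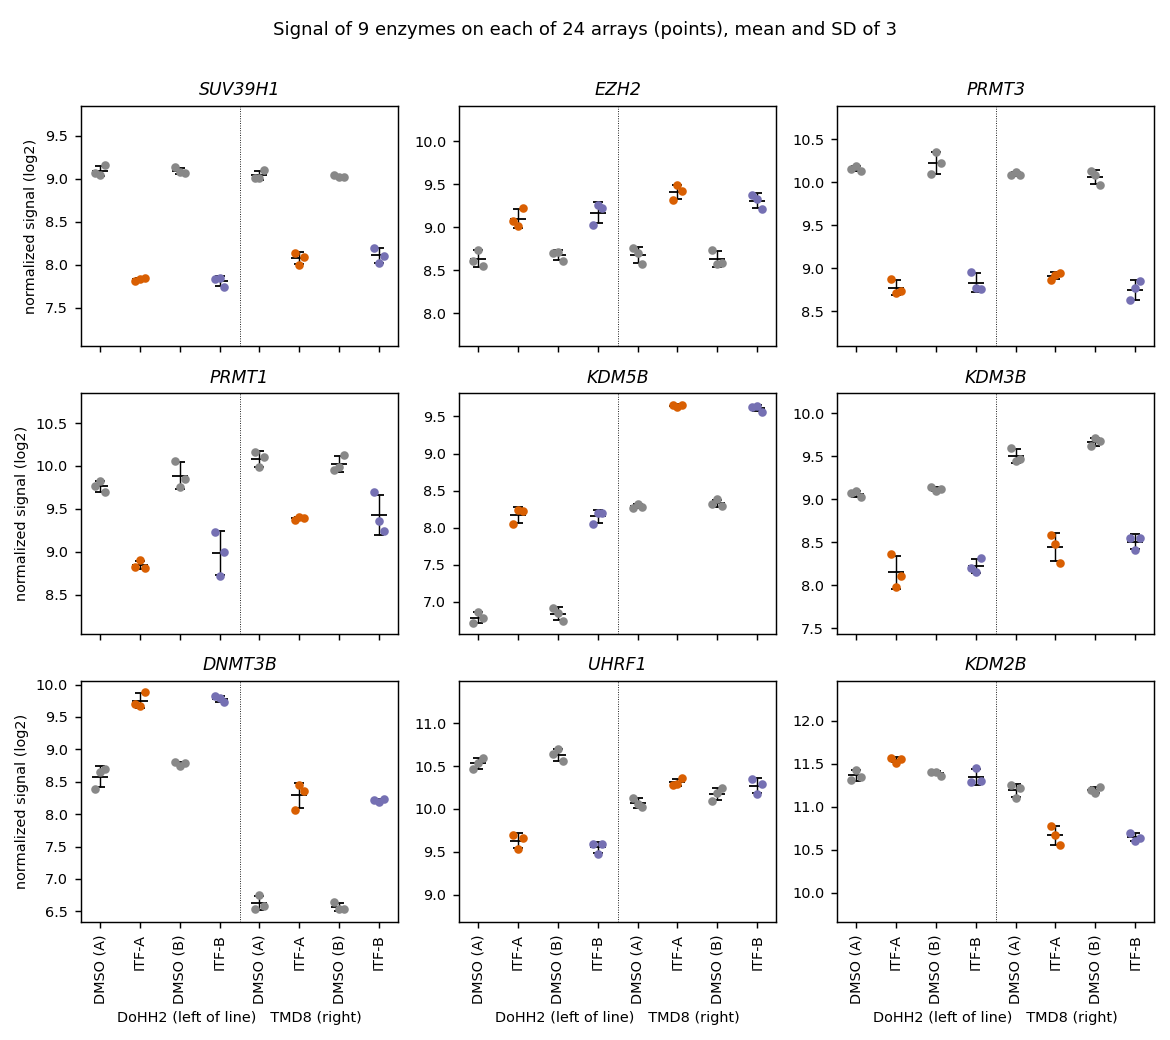
Normalized log2 signal of 9 enzymes on each of the 24 arrays (points), with the mean and SD of the 3 arrays of a group; DoHH2 is left and TMD8 right of the dotted line, DMSO arrays are grey (A and B name the compound they belong to), ITF-A orange and ITF-B violet, and each panel has its own axis range. PRMT3 falls to between 8.63 and 8.96 in all 12 treated arrays, UHRF1 falls in DoHH2 cells alone, and KDM5B starts lower in DoHH2 cells but rises by a similar amount in both lines.

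The 11 demethylases went in both directions. The numbers up and down were 3 and 4 (ITF-A) and 2 and 3 (ITF-B) for DoHH2, and 3 and 2 (ITF-A) and 4 and 2 (ITF-B) for TMD8, with medians from -0.02 to 0.09. Their shares, 18.2% to 36.4% up and 18.2% to 36.4% down, lay around those of named genes above the median signal. Of these genes 28.1% to 28.4% rose and 25.8% to 27% fell. KDM5B, which removes methyl groups from H3K4 and is known as a repressor, had the largest rise in DoHH2 cells among the 48 members. In those cells it read 6.72, 6.87 and 6.78 with DMSO and 8.05, 8.24 and 8.22 with ITF-A, and 6.92, 6.86 and 6.75 and 8.06, 8.20 and 8.20 for ITF-B. In TMD8 cells it read 8.27, 8.32 and 8.28 and 9.66, 9.63 and 9.65 for ITF-A, and 8.33, 8.38 and 8.29 and 9.63, 9.64 and 9.56 for ITF-B. Treated DoHH2 cells thus came close to the level of untreated TMD8 cells, and treated TMD8 cells rose above it. The rises were 1.38, 1.31, 1.36 and 1.28 (SE 0.07, largest adjusted p = 6.73e-19), or 2.43-fold to 2.60-fold, and the difference between the lines was -0.02 (95% interval -0.22 to 0.17) with ITF-A and -0.03 (-0.23 to 0.16) with ITF-B.

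KDM3A and KDM3B, paralogs that remove mono- and dimethylation of H3K9, moved in opposite directions. KDM3A read 7.59, 7.35 and 7.36 with DMSO and 8.09, 8.02 and 8.27 under ITF-A in DoHH2 cells, and 7.47, 7.36 and 7.48 and 7.72, 7.96 and 7.94 for ITF-B. In TMD8 cells it read 8.02, 8.16 and 8.003 and 8.54, 8.71 and 8.74 for ITF-A, and 8.08, 8.18 and 8.11 and 8.38, 8.70 and 8.76 for ITF-B. Its rises were 0.69, 0.44, 0.60 and 0.49 (SE 0.08, largest adjusted p = 2.31e-05), with no overlap between the groups of a comparison. KDM3B fell instead. It read 9.07, 9.09 and 9.02 with DMSO and 8.36, 7.98 and 8.10 under ITF-A in DoHH2 cells, and 9.14, 9.10 and 9.12 and 8.20, 8.15 and 8.31 for ITF-B. In TMD8 cells it read 9.60, 9.45 and 9.47 and 8.58, 8.48 and 8.26 for ITF-A, and 9.62, 9.71 and 9.67 and 8.55, 8.40 and 8.55 for ITF-B. Its falls were -0.91, -0.90, -1.06 and -1.16 (SE 0.08, largest adjusted p = 3.15e-12), again with no overlap.

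Of the other demethylases, KDM1A (LSD1), the amine oxidase that acts on mono- and dimethylated H3K4, was steady. It stayed between 9.98 and 10.16 in the 12 DoHH2 arrays and between 9.08 and 9.31 in the 12 TMD8 arrays, and its changes were -0.01 to 0.09 (95% intervals within -0.14 to 0.23). KDM1B rose with ITF-B in TMD8 cells (0.24), with overlapping groups and a call lost without DMSO replicate 1 or 3 or ITF-B replicate 2 or 3 (adjusted p up to 0.125). KDM2A, which acts on H3K36, fell in DoHH2 cells (-0.30 and -0.30) and gave -0.06 and -0.19 in TMD8 cells. KDM6B, which removes H3K27 methylation, fell in DoHH2 cells, with -0.40 and -0.23. The second of these KDM6B calls had overlapping groups, went with 2 of 3 experiments, and was lost without replicate 2 or 3 of either group (adjusted p up to 0.222). KDM4C passed with ITF-A in DoHH2 cells (-0.20, adjusted p = 0.0415), a call lost without DMSO replicate 1 or any 1 of the 3 ITF-A arrays (up to 0.454), and KDM4A in none (-0.19 to 0.10).

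KDM2B and KDM4B separated the lines. KDM2B binds CpG islands and brings Polycomb proteins to them. In DoHH2 cells it read 11.31, 11.43 and 11.34 with DMSO and 11.57, 11.51 and 11.55 with ITF-A, and 11.41, 11.41 and 11.36 and 11.29, 11.45 and 11.30 for ITF-B. In TMD8 cells the arrays gave 11.25, 11.10 and 11.22 and 10.77, 10.67 and 10.55 for ITF-A, and 11.19, 11.16 and 11.22 and 10.69, 10.60 and 10.64 for ITF-B. The TMD8 groups did not overlap, and the DoHH2 groups overlapped for ITF-B. KDM2B fell in TMD8 cells, with -0.52 and -0.55 (SE 0.07, adjusted p = 1.57e-08 and 5.69e-09). In DoHH2 cells it changed by 0.18 and -0.05 (adjusted p = 0.0368 and 0.749), and the small rise with ITF-A was lost without replicate 1 or 3 of either group (adjusted p up to 0.182). Its other 2 probes were dim, and of these one fell with ITF-A in TMD8 cells (-0.21) and the other was not called. KDM4B, which acts on trimethylated H3K9 and H3K36, showed the reverse. It read 6.86, 6.87 and 6.67 with DMSO and 7.46, 7.57 and 7.26 with ITF-A in TMD8 cells, and 6.94, 7.04 and 6.82 and 7.43, 7.33 and 7.13 for ITF-B. In DoHH2 cells it read 6.89, 6.85 and 6.76 and 6.86, 6.93 and 6.88, and 7.003, 6.96 and 6.70 and 6.72, 6.995 and 6.89. It rose in TMD8 cells by 0.63 and 0.37 (SE 0.08, adjusted p = 6.16e-08 and 0.000577), and gave 0.06 and -0.02 in DoHH2 cells. A second KDM4B probe at the floor of the signal was called in no comparison.

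Of the 6 genes of DNA methylation, DNMT3B rose and TET1 fell in all 4 comparisons, while DNMT1 and TET2 were called in none. DNMT3B, a de novo methyltransferase, had the largest rise in TMD8 cells among the 48 members. Its DoHH2 arrays read 8.39, 8.65 and 8.69 with DMSO and 9.70, 9.67 and 9.89 with ITF-A, and 8.80, 8.75 and 8.79 and 9.82, 9.79 and 9.72 for ITF-B. In TMD8 cells the values were 6.54, 6.75 and 6.59 with DMSO and 8.07, 8.44 and 8.36 with ITF-A, and 6.64, 6.54 and 6.53 and 8.22, 8.19 and 8.24 for ITF-B. The treated DNMT3B arrays of TMD8 cells, at 8.07 to 8.44, came only to the lower end of the DoHH2 arrays with DMSO, at 8.39 to 8.80. The rises were 1.17 and 0.999 for DoHH2 and 1.66 and 1.64 for TMD8 (SE 0.08, largest adjusted p = 1.01e-13), or 2.26-fold, 2.00-fold, 3.17-fold and 3.12-fold. Of 5 DNMT3B probes, 4 rose in all 4 comparisons, by 0.34 to 1.66, and the dimmest was called in none. Its promoter run had the fewest CG dinucleotides of the 4 printed, and a link of this to the rise was not tested.

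UHRF1, which recognizes hemimethylated DNA and recruits DNMT1, fell in DoHH2 cells alone. In these it read 10.47, 10.53 and 10.59 with DMSO and 9.70, 9.53 and 9.66 with ITF-A, and 10.65, 10.69 and 10.56 and 9.60, 9.48 and 9.59 for ITF-B. The TMD8 arrays gave 10.13, 10.06 and 10.02 with DMSO and 10.28, 10.29 and 10.36 with ITF-A, and 10.10, 10.19 and 10.24 and 10.35, 10.18 and 10.29 for ITF-B. Treatment thus took UHRF1 in DoHH2 cells from above to below its level in TMD8 cells. Its changes were -0.90 and -1.08 in DoHH2 cells (SE 0.07, adjusted p = 5.05e-14 and 2.48e-16), and 0.24 and 0.10 in TMD8 cells (adjusted p = 0.0064 and 0.408). A second UHRF1 probe, whose mean signal lay at the median of all probes, gave -0.26 and -0.30 in DoHH2 cells, both called, and 0.09 and 0.07 in TMD8 cells, neither called. DNMT1, the maintenance methyltransferase, read 11.77 to 12.05 in the DMSO arrays of DoHH2 cells and 11.97 to 12.14 in the treated ones, and 11.57 to 11.73 and 11.59 to 11.78 in TMD8 cells. The changes of DNMT1 in DoHH2 cells, 0.18 and 0.16, did not pass (adjusted p = 0.0564 and 0.0935), while that with ITF-A passed without DMSO replicate 2 (0.25, adjusted p = 0.00914). In TMD8 cells they were 0.06 and -0.01. Those in DoHH2 cells passed under some of the alternatives given at the end.

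DNMT3A, the other de novo enzyme, went opposite to DNMT3B. It fell under ITF-A in DoHH2 cells (-0.22) and under both compounds in TMD8 cells (-0.34 and -0.29), and gave -0.05 with ITF-B in DoHH2 cells. The first of these calls was lost without replicate 1 or 3 of either group (adjusted p up to 0.189), and 2 dimmer DNMT3A probes were called in none of the 4 comparisons. On the mean of the DNMT3A probes no call remained (-0.12, -0.13 and -0.14). TET1, which starts the oxidation of methylcytosine, read 7.16, 7.02 and 6.92 with DMSO and 6.47, 6.50 and 6.38 under ITF-A in DoHH2 cells, and 6.88, 6.99 and 6.93 and 6.45, 6.60 and 6.42 for ITF-B. In TMD8 cells it read 6.26, 6.33 and 6.30 and 6.04, 6.06 and 5.98 for ITF-A, and 6.35, 6.26 and 6.37 and 6.09, 6.04 and 6.01 for ITF-B, near the median of all probes. It fell, with changes of -0.58, -0.44, -0.27 and -0.28 (SE 0.07, largest adjusted p = 0.00133). Of 2 further TET1 probes, one fell in DoHH2 cells (-0.39 and -0.42) and not in TMD8 cells, and the other was called in none. TET2 lay under the median signal, with 0.00 to 0.08.

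The lines were then compared directly, as the change in TMD8 cells minus that in DoHH2 cells. With ITF-A this difference passed for 8 members, 6 toward a higher value in TMD8 cells and 2 toward a lower one, and with ITF-B for 5 (4 and 1). For all named genes the shares were 11.4% and 11% with ITF-A (22.4% in all), and 11.8% and 10.8% with ITF-B (22.5%). With both compounds UHRF1, DNMT3B, KDM4B and SUV39H1 had the more positive change in TMD8 cells and KDM2B the more negative. UHRF1 differed by 1.14 and 1.17 (SE 0.10, adjusted p = 4.55e-12 and 1.89e-12), and within chips by 1.21 on chip 1 and 1.04 on chip 2 with ITF-A and 0.99 on chip 1 and 1.39 on chip 2 with ITF-B. KDM2B differed by -0.71 and -0.50 (SE 0.09, adjusted p = 1.53e-07 and 7.61e-05), and its other 2 probes did not. DNMT3B differed by 0.49 and 0.64 (SE 0.11, adjusted p = 0.00114 and 2.5e-05), but this held only for the probe read: the other probes that rose gave -0.27 to 0.40 with ITF-A and -0.26 to 0.18 with ITF-B, none called. The difference of DNMT3B with ITF-A did not pass on the table normalized by the authors (0.26, adjusted p = 0.0740), and neither difference passed on the mean of all its probes (0.16 and 0.14).

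KDM4B differed by 0.57 and 0.39 (adjusted p = 0.000378 and 0.0201), within chips by 0.52 on chip 1 and 0.57 on chip 2 with ITF-A and 0.11 on chip 1 and 0.62 on chip 2 with ITF-B. The second of these was lost without replicate 1 or 2 of its DMSO set in DoHH2 cells, ITF-B replicate 1 in DoHH2 cells, DMSO replicate 1 or 3 in TMD8 cells or ITF-B replicate 1 or 2 in TMD8 cells (0.29 to 0.37, adjusted p up to 0.116). SUV39H1 fell less in TMD8 cells, with differences of 0.29 and 0.36 (adjusted p = 0.0245 and 0.0038). The first of these was lost in 6 of the 12 fits that left out an array of that comparison (adjusted p up to 0.104), those without DMSO replicate 3 or ITF-A replicate 1 in DoHH2 cells, or without DMSO replicate 1 or 2 or ITF-A replicate 1 or 3 in TMD8 cells. On the probes read, with ITF-A alone, TET1 and KDM6B fell less in TMD8 cells, with differences of 0.31 and 0.36 (adjusted p = 0.0217 and 0.0357), and PRMT6 fell more, with -0.33 (adjusted p = 0.0109). With DMSO TMD8 arrays read 6.26 to 6.37 for TET1 and 6.04 to 6.29 for KDM6B, near the median of all probes. TET1 and KDM6B thus had little room to fall there, and the part of this in the differences was not tested. The TET1 difference was lost without DMSO replicate 1 or ITF-A replicate 3 in DoHH2 cells or DMSO replicate 1 or ITF-A replicate 2 in TMD8 cells (up to 0.0927), and that of PRMT6 without ITF-A replicate 1 in DoHH2 cells (0.0501). That of KDM6B was lost without replicate 3 of either DoHH2 group, DMSO replicate 2 or 3 in TMD8 cells or ITF-A replicate 2 there (up to 0.243). On the mean of all probes neither the TET1 nor the PRMT6 difference passed (0.15 and -0.20), and the second PRMT6 probe gave -0.29 (adjusted p = 0.119). With ITF-B the brightest probes of TET1, KDM6B and PRMT6 gave 0.17, 0.16 and -0.19, none of which passed. A second TET1 probe went the other way round, with a difference that passed with ITF-B (0.39, adjusted p = 0.0154) and not with ITF-A (0.21, adjusted p = 0.318). For EZH2 the differences of 0.26 and 0.18 did not pass on the probe read (adjusted p = 0.115 and 0.372), while a second probe passed with both compounds (0.46 and 0.35, adjusted p = 0.00098 and 0.0146) and the third with neither.

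UHRF1 and proliferation genes moved differently in the lines. Of 17 genes of DNA replication and mitosis, 11 were down and 2 up under each compound in DoHH2 cells, and 9 down and 4 up (ITF-A) or 8 down and 4 up (ITF-B) in TMD8 cells. Among named genes above the median signal, 25.8% to 27% fell and 28.1% to 28.4% rose in the 4 comparisons. The mean signal of these 17 was 9.90 to 9.99 in DMSO arrays and 9.60 to 9.66 in treated arrays of DoHH2 cells, and 9.67 to 9.79 and 9.52 to 9.60 in TMD8 cells. With ITF-A 8 of them had a more positive change in TMD8 cells and 2 a more negative one, and with ITF-B 10 and 2. PCNA, the sliding clamp of DNA replication, changed by -0.39 and -0.33 for DoHH2 and 0.48 and 0.41 for TMD8. In TMD8 cells PCNA went against the median change of the 17, which was -0.21 and -0.23 there and -0.25 and -0.24 in DoHH2 cells. The part of proliferation in the UHRF1 result was not tested.

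**Figure D3:**
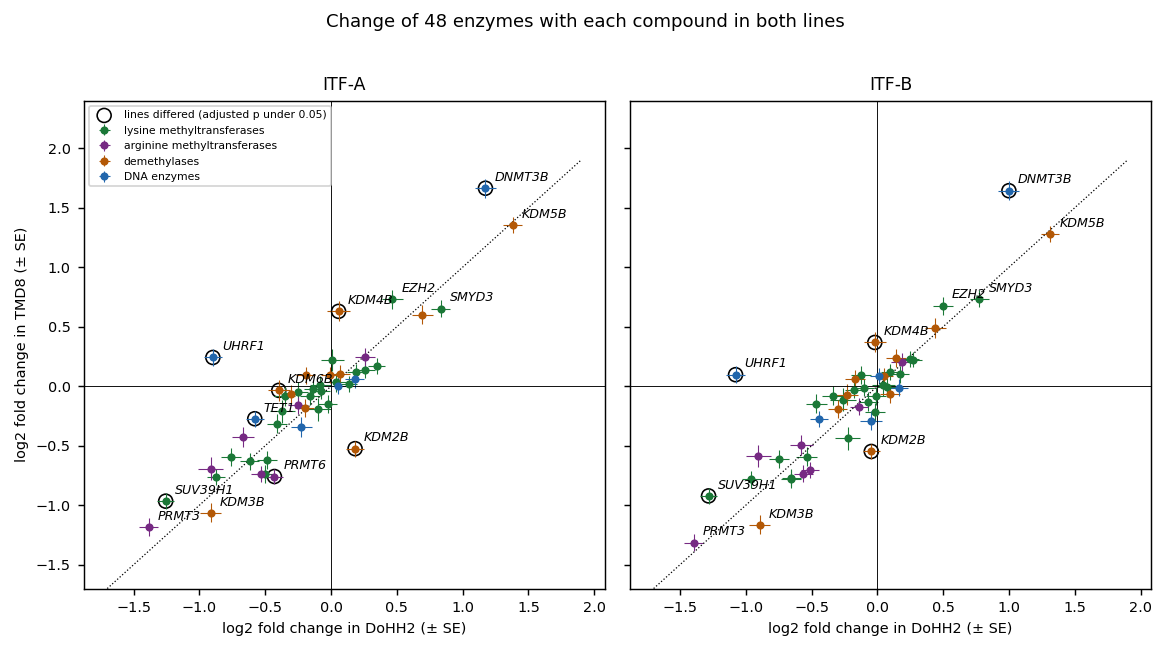
Change of each of the 48 enzymes in DoHH2 cells (horizontal) and in TMD8 cells (vertical) with ITF-A (left) and ITF-B (right), in log2 with the SE as bars; colours give the class, the dotted line marks equal change, and circles mark members whose change differed between the lines at an adjusted p under 0.05. UHRF1 stands far above the line with -0.90 and -1.08 in DoHH2 cells against 0.24 and 0.10 in TMD8 cells, and KDM2B below it.

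With DMSO alone the lines already differed in 28 members, 13 higher and 15 lower in TMD8 cells, against 21.2% and 22.6% of all named genes (43.7% in all) and 31.4% and 33.4% of those above the median signal. DNMT3B had the largest difference. Over 6 DMSO arrays each, its lowest, median and highest values were 8.39, 8.72 and 8.80 for DoHH2 and 6.53, 6.56 and 6.75 for TMD8, a difference of -2.11 (SE 0.06, adjusted p = 1.71e-29), or 4.31-fold. The other DNMT3B probes that rose with treatment were lower in TMD8 cells, with -1.45, -1.22 and -0.36. KDM5B was the reverse, with 6.72, 6.82 and 6.92 for DoHH2 and 8.27, 8.31 and 8.38 for TMD8 (1.496, adjusted p = 2.04e-26). PRMT2 gave 6.68, 6.78 and 6.97 for DoHH2 and 7.74, 7.85 and 7.96 for TMD8 (1.04, adjusted p = 2.01e-19), and a second probe differed by 0.71. KDM1A gave 9.98, 10.04 and 10.13 for DoHH2 and 9.08, 9.13 and 9.28 for TMD8 (-0.89, adjusted p = 3.19e-19). The arrays of the lines did not overlap for any of these 4 genes, which were picked for the size of this difference.

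Higher in TMD8 cells were also SMYD3 (0.79), KDM3A (0.62), PRMT6 (0.60), SMYD2 (0.57), KDM3B (0.51), KMT2B (0.43) and ASH2L (0.41). Lower there were TET1 (-0.65), UHRF1 (-0.46), KMT2A (-0.44), KMT2C (-0.44), KDM2A (-0.37), KDM6B (-0.35) and SETDB2 (-0.34). Of the DNA enzymes, DNMT3A was higher in TMD8 cells (0.37) while DNMT3B, TET1, UHRF1 and DNMT1 (-0.22) were lower. The DNMT3A difference did not pass on the mean of its probes (0.10, adjusted p = 0.0565), and a dimmer DNMT3A probe was lower in TMD8 cells (-0.14, adjusted p = 0.0309). EZH2 did not differ on the probe read (0.01, 95% interval -0.10 to 0.13), and another EZH2 probe was lower in TMD8 cells (-0.30, adjusted p = 0.00187). Small differences of DOT1L (-0.20), PRMT5 (-0.17), KDM1B (0.17) and SETD2 (0.13) depended on single arrays. That of DOT1L was lost without DMSO for ITF-A replicate 1 or 2 or DMSO for ITF-B replicate 3 in DoHH2 cells, or DMSO for ITF-A replicate 3 or DMSO for ITF-B replicate 1 in TMD8 cells (adjusted p up to 0.112). That of PRMT5 was lost without replicate 3 of either DoHH2 set, replicate 1 of either TMD8 set or replicate 2 of the TMD8 set for ITF-A (up to 0.132). That of KDM1B was lost without DMSO for ITF-A replicate 3 in DoHH2 cells, or DMSO for ITF-A replicate 1 or DMSO for ITF-B replicate 2 in TMD8 cells (up to 0.156), and that of SETD2 in 16 of the 24 fits that left out an array (up to 0.150).

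**Figure D4:**
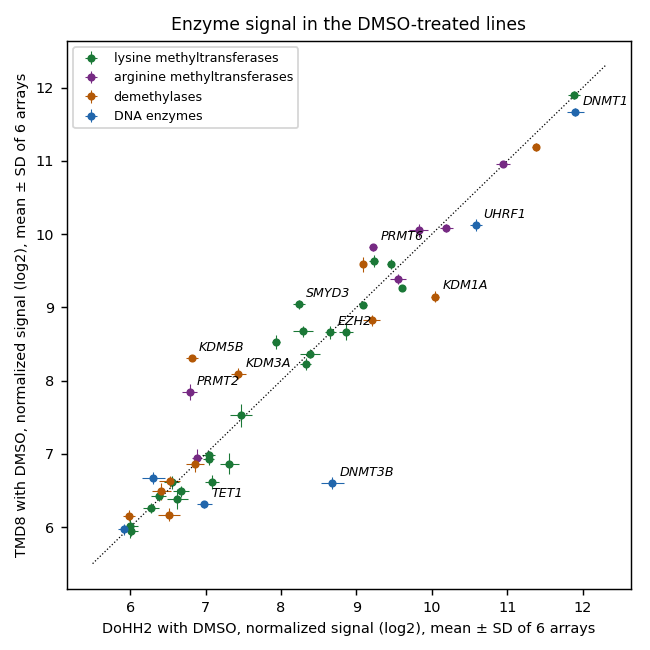
Normalized log2 signal of the 48 enzymes in DMSO-treated DoHH2 cells (horizontal) and TMD8 cells (vertical), as the mean and SD of 6 arrays of each line; the dotted line marks equal signal, and only the distance of a gene from it is comparable, since probes differ in brightness. DNMT3B and KDM1A lie below the line, KDM5B, PRMT2 and SMYD3 above it, and EZH2 on it.

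Both DMSO sets of a line served as a check of what differs without a compound. No member differed between the sets in either line at an adjusted p under 0.05 in limma, and 5 in DoHH2 cells and 3 in TMD8 cells did at an unadjusted p under 0.05 (10.4% and 6.25% of the members), where 5.14% and 6.91% of named genes did. After adjustment 0.00499% of named genes differed in DoHH2 cells and 0.0449% in TMD8 cells. The differences between sets ran from -0.21 to 0.20 in DoHH2 cells and from -0.22 to 0.18 in TMD8 cells, and those of DNMT3B were 0.20 and -0.06.

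Side by side at their different doses, the compounds called much the same members. In DoHH2 cells 26 members were called with both, all in the same direction, and 7 with ITF-A alone, which were KMT2A, EHMT2, PRMT2, PRMT7, KDM2B, KDM4C and DNMT3A. In TMD8 cells 22 were called with both, all in the same direction, 2 with ITF-A alone (SMYD5 and UHRF1) and 5 with ITF-B alone (EED, SUV39H2, SETDB2, ASH2L and KDM1B). Among all named genes 6385 were called with both in DoHH2 cells, 876 with ITF-A alone and 793 with ITF-B alone, and in TMD8 cells 6546 with both, 875 with ITF-A alone and 817 with ITF-B alone. Every member called with a compound, or called in the comparison of the lines or of the DMSO arrays, kept its direction on each chip taken alone. Of the 110 changes called with a compound, 15 moved on a single chip by over 1.5 times from the value on both chips. These were PRMT1, PRMT2, PRMT5, KDM1B, KDM3A, SETDB2 and DNMT3A with ITF-B in TMD8 cells, DNMT3A and UHRF1 with ITF-A there, DOT1L and KDM6B with both compounds in DoHH2 cells, and EHMT2 and KDM4C with ITF-A in DoHH2 cells.

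Partner genes outside the set gave a mixed picture. Counts for all the lists below stand beside 35.8% to 37% of named genes called in a comparison, and 54.1% to 55.1% of those above the median signal. Of 8 accessory PRC2 subunits, 4 rose and 3 fell in DoHH2 cells with each compound, and 4 rose and 2 fell in TMD8 cells. JARID2, which guides PRC2 to its targets, rose by 1.45, 1.42, 1.60 and 1.60, and PHF19, a Polycomb-like subunit, fell, with changes of -1.73, -1.81, -1.93 and -1.91. Of 11 subunits shared by MLL and COMPASS complexes, the numbers up and down were 4 and 6 (ITF-A) and 5 and 6 (ITF-B) for DoHH2, and 5 and 3 (ITF-A) and 4 and 3 (ITF-B) for TMD8. HCFC1, a cofactor of SET1 complexes, fell, with changes of -2.03, -2.23, -1.64 and -1.61, while RBBP5, a core subunit, rose by 0.82, 0.86, 0.76 and 0.68. WDR5, another core subunit, fell in DoHH2 cells (-0.52 and -0.58) and gave 0.26 and 0.15 in TMD8 cells, with a difference between the lines of 0.77 and 0.73 (adjusted p = 2.48e-07 and 8.89e-07).

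Of 11 further lysine methyltransferases, those up and down numbered 3 and 5 (ITF-A) and 2 and 3 (ITF-B) in DoHH2, and 4 and 3 (ITF-A) and 3 and 3 (ITF-B) in TMD8. KMT5B, which methylates H4K20, fell, with changes of -0.87, -0.74, -0.78 and -0.75. Of 10 further demethylases, DoHH2 cells showed 1 up and 4 down (ITF-A) or 3 up and 4 down (ITF-B), and TMD8 cells none up and 6 (ITF-A) or 7 (ITF-B) down. PHF2, a Jumonji protein, fell, with changes of -1.15, -1.21, -1.13 and -1.20. Among 6 partners of arginine methylation, WDR77, the partner of PRMT5, fell, with changes of -0.63, -0.57, -0.31 and -0.26, and RIOK1, which binds PRMT5 in place of another adaptor, fell too, with -0.44, -0.56, -0.52 and -0.52. In all, 2 of these 6 rose and 3 fell in DoHH2 cells with each compound, and 2 fell in TMD8 cells.

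Genes that supply the methyl donor moved in both directions. Of 12 genes of the S-adenosylmethionine cycle, 3 rose and 5 fell in DoHH2 cells with each compound, and 4 rose and 4 fell in TMD8 cells. MAT2A, which makes S-adenosylmethionine, fell, with changes of -0.90, -0.95, -0.42 and -0.58, and less in TMD8 cells than in DoHH2 cells (0.48 and 0.38, adjusted p = 0.000519 and 0.00731). Of 12 readers of methylated lysine or DNA, DoHH2 cells showed 3 up and 6 down (ITF-A) or 4 up and 7 down (ITF-B), and TMD8 cells 3 up and 4 down under each compound. CBX2, a Polycomb protein that reads H3K27 methylation, fell in DoHH2 cells (-0.51 and -0.57) and rose in TMD8 cells (1.37 and 1.29), a difference of 1.88 and 1.86 (adjusted p = 2.96e-18 and 4.21e-18). CBX7, a related reader, rose in both, by 1.39, 1.46, 1.46 and 1.23.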

How the data were processed

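The RNA of 24 cultures was read on HumanHT-12 v4 expression arrays of Illumina, 12 on each of 2 chips, and both deposited tables were used. The probe intensities deposited by the authors are bead summary signals without normalization. The log2 values deposited by the authors had, per the study's methods, been quantile normalized and adjusted for batch with ComBat, and the batch used is not given in the sources used here. Each of its 24 columns correlated best with the intensities of its own array (r at least 0.999813), and it served as an alternative. No columns of comparisons made by the authors were used.

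Intensities were corrected with normexp (offset 50), quantile normalized and put on the log2 scale with limma 3.58.1 in R 4.3.3, and fitted with 8 groups and the chip as a covariate (15 residual degrees of freedom). P-values were adjusted by Benjamini-Hochberg over all 47231 probes. Probes were named through the platform annotation: 30113 carried 1 symbol, 8 several and 17110 none. For a gene with several probes the one with the highest mean signal was read. Precision is limited by the 3 arrays of a group: the median SE of all probes was 0.0752 within a line and 0.106 for a difference between lines. The script was tested on simulated data.

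The members and gene lists were chosen with earlier results of these data known. Some genes were given with the values of single arrays or their range. Per class and subclass, these were the genes with the largest mean rise and fall among members called in all 4 comparisons. Added were members called in opposite directions in the lines and those whose lines differed most with both compounds. So were those that differed most between the lines with DMSO, and a few fixed for their role. The experiment numbers of the labels mark 3 independent experiments, so that samples with the same number are paired. Deviations from the group means of such pairs of treated and DMSO arrays correlated at -0.0864 to 0.141 (12 pairs, 23879 probes above the median signal). In 6 of the 12 pairs the treated array correlated best with its own DMSO array. Alternatives were the authors' table, no background correction, another offset, no chip term, the arrays of a line alone, both DMSO sets of a line as the control, a filter on dim probes, ComBat for the chip (written out in R after the published method), each chip alone, the mean of all probes of a gene, the replicate block and leaving out each array. Promoter runs came from RefSeq (GRCh38.p14). Of the further lists, 1 lysine methyltransferase, 1 gene of the S-adenosylmethionine cycle and 4 readers were not named by the annotation and were not analysed here.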

Additional observations from a re-analysis of the deposited data

Results flagged for a closer look

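In 13 cases the change with a compound differed between TMD8 and DoHH2 cells by the limma test of the difference itself, given here as the change in TMD8 cells minus that in DoHH2 cells. With ITF-A these were UHRF1 (1.14, adjusted p = 4.55e-12), KDM2B (-0.71, adjusted p = 1.53e-07), KDM4B (0.57, adjusted p = 0.000378), DNMT3B (0.49, adjusted p = 0.00114), PRMT6 (-0.33, adjusted p = 0.0109), TET1 (0.31, adjusted p = 0.0217), SUV39H1 (0.29, adjusted p = 0.0245) and KDM6B (0.36, adjusted p = 0.0357). With ITF-B they were UHRF1 (1.17, adjusted p = 1.89e-12), DNMT3B (0.64, adjusted p = 2.5e-05), KDM2B (-0.50, adjusted p = 7.61e-05), SUV39H1 (0.36, adjusted p = 0.0038) and KDM4B (0.39, adjusted p = 0.0201). These were 16.7% of the members with ITF-A and 10.4% with ITF-B, against 22.4% and 22.5% of all named genes. Of named genes above the median signal, 33.5% and 33.9% differed.

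With ITF-A the calls of UHRF1 and KDM2B had opposite directions in the lines. The smaller change of each was the less firm: the rise of KDM2B in DoHH2 cells (0.18) was lost in 4 fits that left out an array, with an offset of 16, on each chip alone, with the DoHH2 arrays alone and on the mean of its probes (0.10), and the second UHRF1 probe was not called in TMD8 cells (0.09). For UHRF1 both probes gave a difference between the lines with each compound, and for KDM2B, KDM4B, DNMT3B and PRMT6 only the brightest probe did. For TET1 the brightest probe differed with ITF-A and a second one with ITF-B (0.39, adjusted p = 0.0154). SUV39H1 and KDM6B had 1 probe each. In TMD8 cells with DMSO the KDM6B probe and the brightest TET1 probe lay near the median signal, with little room to fall. Groups of 3 arrays are too small for a test of a single array that lies far from the others.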

How the results depend on the processing

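Of 87 called values of the members given array by array, 67 stayed called in all alternatives that were run. Over 3095 refitted values of these members 3011 stayed called in the same direction, 84 no longer passed and 0 changed direction. Most of these members were picked from the same data for their large changes or differences, so their stability does not speak for the other members. Among all members, 6 of 33 calls (ITF-A) and 2 of 26 (ITF-B) in DoHH2 cells were lost in some fit that left out an array. In TMD8 cells 1 of 24 and 5 of 27 were lost in this way. So were 4 of 8 and 1 of 5 line differences, and 4 of 28 differences between the lines with DMSO. For all members, leaving out each array gave 7 to 10 rises and 20 to 24 falls with ITF-A in DoHH2 cells, 7 to 8 and 17 to 20 with ITF-B, and in TMD8 cells 7 to 9 and 16 to 17 with ITF-A and 7 to 10 and 17 to 18 with ITF-B. With DMSO 11 to 13 members were higher and 13 to 15 lower in TMD8 cells. The difference between the lines was positive in 4 to 7 and negative in 1 to 2 members with ITF-A, and positive in 3 to 5 and negative in 1 to 2 with ITF-B.

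Counts moved by over 1.5 times under a few settings. On chip 1 alone 5 members rose with ITF-A in DoHH2 cells, and on chip 2 alone 6 (10 with all arrays), while on chip 2 alone 5 rose with ITF-B in TMD8 cells (10 with all arrays). Line differences with ITF-A were positive in 3 members with an offset of 16, in 3 on chip 1 and in 2 on chip 2 (6 with all arrays), and negative in 1 member under these settings and with the mean of all probes (2 with all arrays). With ITF-B they were positive in 2 members on chip 1 and with the mean of all probes (4 with all arrays), and negative in 0 on chip 2 (1 with all arrays). A chip alone holds fewer arrays, and the other causes were not tested. The DMSO difference of EZH2 turned to -0.14 (adjusted p = 0.0167) with the mean of its probes, 1 of which was lower in TMD8 cells. The rise of DNMT1 in DoHH2 cells passed under both compounds, in the order ITF-A, ITF-B, without background correction (adjusted p = 0.0189, 0.0364), on the authors' table (0.0332, 0.0474) and with both DMSO sets as control (0.0465, 0.0184). With ITF-A only, it also passed with ComBat for the chip, the filter on dim probes and the mean of all probes (adjusted p = 0.037 each).

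With the replicate block, which uses the pairing by experiment, calls changed only for KDM4A with ITF-A in DoHH2 cells (adjusted p from 0.0502 to 0.0480), KMT2C with ITF-A in TMD8 cells (0.0719 to 0.0474) and SMYD5 in the line difference with ITF-B (0.0511 to 0.0494), and no other call. The filter on dim probes left 45 members, without KMT2D, SETD7 and TET2. Members near the median signal have little room to fall, which limits what can be seen for them.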
